A study of Mus musculus with 6 samples.

Results

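The cell cycle genes described here are 42 listed genes of DNA replication and mitosis, with the cyclins, kinases, inhibitors and transcription factors that govern them, read in whole lungs of mice at postnatal day 15. A gene was taken as measured where a probe set carried its symbol alone, and its brightest such probe set over all 6 arrays represented it. This gave 41 of the 42 genes, among 18193 genes measured in the same way, and Ccnb1 (cyclin B1) was not analysed here. The series holds 6 Affymetrix mouse arrays of total lung RNA, 3 labelled wildtype, control and 3 labelled Foxa2-/-, from littermates. The design text asks how loss of Foxa2, which encodes a forkhead factor made by airway and alveolar epithelium, bears on Th2 inflammation and on goblet cells, which make mucus. The strain field of both groups reads SPC(+)Cre(-), with doxycycline (Dox) from embryonic day 6.5 to 12.5. In systems of this kind a surfactant protein C promoter (SPC), active in lung epithelium, makes Cre depend on doxycycline, so that a gene is deleted in epithelial cells and kept in other cells of the organ. The Cre(-) entry stands beside both genotypes and does not tell the groups apart. The genotype field therefore set the groups, and replicate numbers follow the order of the samples and pair nothing. Each array is called here by its group and replicate.

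A cell that divides copies its DNA in S phase and separates the copies in mitosis. D-type cyclins with their kinases release E2F transcription factors, which switch on the replication genes. Mitotic genes are switched on later, largely through FOXM1 and a complex with B-MYB that binds a short promoter element called the cell cycle genes homology region (CHR). Because resting cells hold little of these transcripts, their level in a whole organ follows how many of its cells are dividing, and the young mouse lung is still growing at this age. In a bulk sample, more dividing cells and more RNA per dividing cell cannot be told apart.

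Several facts of the whole series bear on the values. Foxa2 itself read 10.28, 10.56 and 10.28 in control replicates 1 to 3 and 7.72, 5.38 and 5.13 in Foxa2-/- replicates 1 to 3 (log2 signal). All 3 Foxa2-/- lungs lay below all controls, with a log2 difference of -4.30 (SE 0.66, limma adjusted p = 0.0599). Array medians ran from 7.85 to 7.91, and the number of arrays limits the precision of every value. For Gapdh, the array carries control probe sets at both transcript ends, whose gap in signal (3-prime minus 5-prime) widens as RNA degrades. It was 1.06 to 1.23 in controls and 0.91 to 0.97 in Foxa2-/- lungs, without overlap. For beta-actin the same gap was 0.57, 0.65 and 0.46 in controls and 0.44, 0.43 and 0.47 in Foxa2-/- lungs, with overlap. The part of RNA degradation in the results was not tested. Foxa2-/- replicate 1 stood apart, with the highest value of the 6 arrays in 34.3% of all genes. Control replicate 2 and Foxa2-/- replicates 2 and 3 share the first number in their titles, whose meaning is not given, and values among those 3 arrays are given below as within the shared number. Nothing in the labels ties the arrays to separate animals, and the p-values therefore cover no more than the spread of these samples, part of which may be technical.

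Cell cycle genes read higher in the Foxa2-/- lungs as a body, but no single gene passed the test. The difference (Foxa2-/- minus control, log2) was above 0 in 38 of the 41 genes, where 50.8% of all genes were above 0. Its median over the 41 was 0.64, against 0.01 over all genes, and its range ran from -0.41 for Cdkn1c to 1.50 for Birc5. In 18 of the 41 every Foxa2-/- array lay above every control, beside 10.8% of all genes, and in none did every one lie below, beside 8.73%. After Benjamini-Hochberg adjustment over all genes limma called 0 of the 41, where it called 104 of 18193, or 0.572%. At an unadjusted p under 0.05 the count was 16 of the 41, all of them higher in the Foxa2-/- lungs, beside 7.28% of all genes in that direction. The smallest adjusted p was 0.106, for Tk1. The list was tested only gene by gene, and its counts and median are descriptions.

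**Figure D1:**
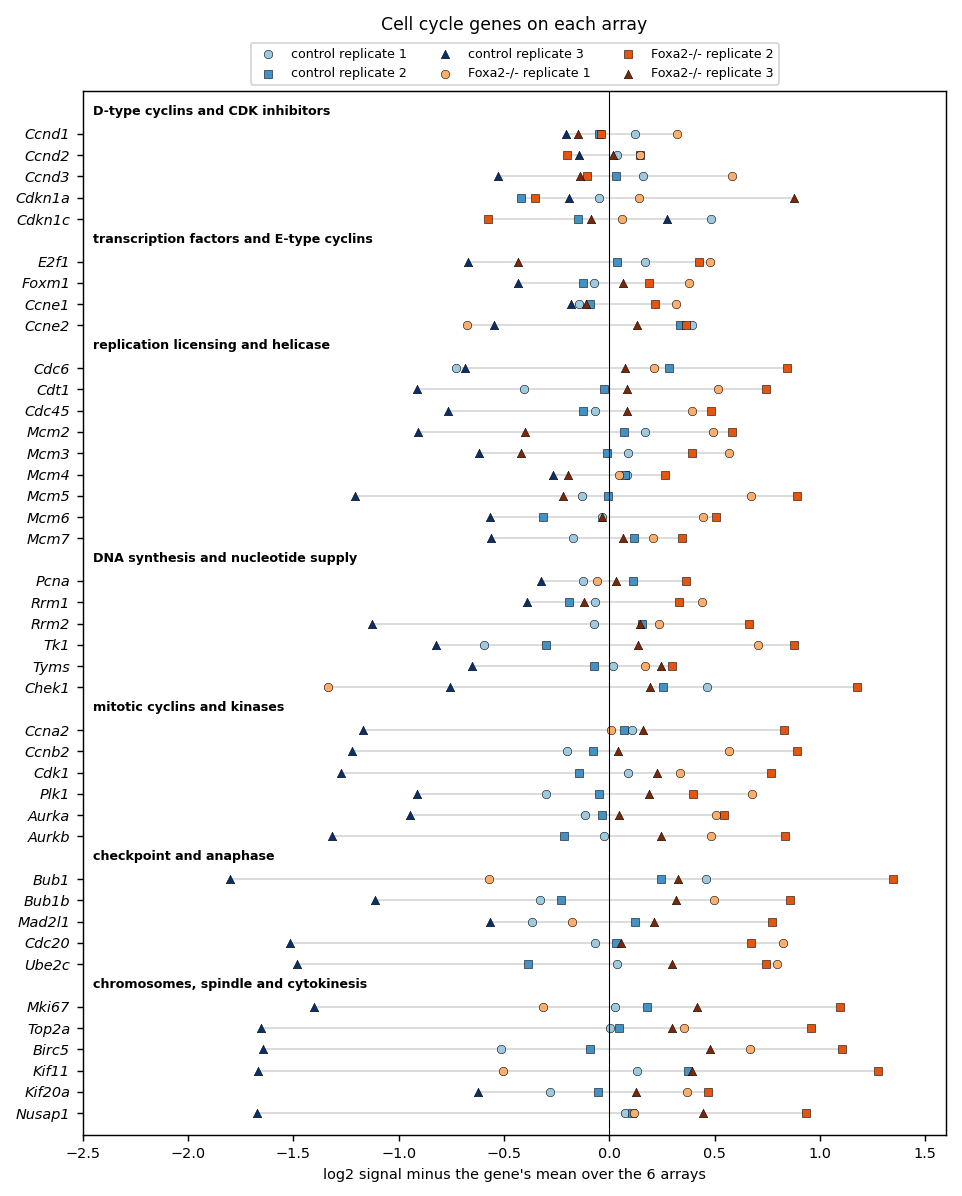
Each row is a cell cycle gene and each point an array, placed by its log2 signal minus the gene's mean over the 6 arrays. Control replicate 3 (dark blue triangles) is the lowest of the 6 arrays in 35 of the 41 genes, and Foxa2-/- replicate 2 (orange squares) the highest in 27.

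The difference was smaller without a single control. Control replicate 3 was the lowest of the 6 arrays in 35 of the 41 genes, while it was lowest in 17.8% of all genes, and it lay below both other controls in 38 of the 41. Its value minus the mean of control replicates 1 and 2 had a median of -0.74 and reached -2.15 for Bub1. The other extreme was Foxa2-/- replicate 2, the highest of the 6 arrays in 27 of the 41, against 14.2% of all genes. Without control replicate 3 the median difference of the 41 genes was 0.34, 36 differences were above 0 (49.9% of all genes), and 18 genes had every Foxa2-/- array above both remaining controls (15.6% of all genes). The count at an unadjusted p under 0.05 was then 9 of the 41, beside 9.95% of all genes, and limma still called 0. Within the shared number the median was also 0.34, with 33 of 41 above 0, and it rests on a single control array.

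Promoters of some of these genes are shown as background, because mitotic and replication genes are known to share promoter elements. Whether these elements bear on the values was not tested. RefSeq sequences of assembly GRCm38.p6, from 250 bases before to 50 after the start, were at hand for 33 of the 42 genes, taking the first start listed. Both strands were searched for the CHR as TTTGAA or TTCGAA, for the CCAAT box that the factor NF-Y binds as CCAAT, and for an E2F site as TTTCCCGC, TTTCGCGC, TTTGCCGC or TTTGGCGC. The sequences below are the 120 bases before the start, 5′ to 3′ on the gene's strand, with every match in capitals. A match on the opposite strand is left as it reads on the gene's strand, and the first capitals of Mcm6 are overlapping E2F matches on both strands. Of the mitotic genes, Ube2c lies at chr2:164769809-164769928 (plus strand), Cdc20 at chr4:118437344-118437463 (minus strand), Cdk1 at chr10:69352913-69353032 (minus strand), Top2a at chr11:99024190-99024309 (minus strand) and Kif11 at chr19:37376262-37376381 (plus strand). Mcm6, at chr1:128359706-128359825 (minus strand), stands for the replication genes. Birc5, at chr11:117849117-117849236 (plus strand), and Tk1, at chr11:117826015-117826134 (minus strand), are among the genes with the largest differences in signal, and no searched word lies in their windows.
Ube2c: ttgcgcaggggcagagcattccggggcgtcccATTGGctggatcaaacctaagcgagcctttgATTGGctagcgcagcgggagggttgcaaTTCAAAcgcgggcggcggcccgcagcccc
Cdc20: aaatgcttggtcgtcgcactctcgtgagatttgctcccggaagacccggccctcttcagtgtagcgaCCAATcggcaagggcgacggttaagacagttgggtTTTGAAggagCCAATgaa
Cdk1: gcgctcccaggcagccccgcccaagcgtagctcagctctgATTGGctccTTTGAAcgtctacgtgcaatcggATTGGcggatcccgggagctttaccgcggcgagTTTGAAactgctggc
Top2a: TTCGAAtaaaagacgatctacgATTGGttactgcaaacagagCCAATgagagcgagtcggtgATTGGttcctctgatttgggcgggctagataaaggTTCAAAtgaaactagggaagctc
Kif11: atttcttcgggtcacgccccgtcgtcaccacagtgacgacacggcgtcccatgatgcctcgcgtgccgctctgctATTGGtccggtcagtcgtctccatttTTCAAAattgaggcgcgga
Mcm6: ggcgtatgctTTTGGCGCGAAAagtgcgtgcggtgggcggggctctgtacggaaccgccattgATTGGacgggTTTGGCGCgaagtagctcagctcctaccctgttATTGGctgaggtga
Birc5: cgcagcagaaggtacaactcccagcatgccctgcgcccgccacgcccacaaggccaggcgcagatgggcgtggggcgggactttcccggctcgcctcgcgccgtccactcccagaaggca
Tk1: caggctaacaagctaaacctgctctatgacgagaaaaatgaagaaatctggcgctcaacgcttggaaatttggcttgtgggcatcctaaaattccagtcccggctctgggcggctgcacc

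CHR matches were more frequent in the mitotic genes than in the replication genes, while CCAAT matches were frequent in both. A CHR match was found in 11 of the 15 mitotic genes with a promoter (73.3%), in 3 of the 14 replication genes (21.4%) and in 19.4% of all 27025 promoters. A CCAAT match was found in 12 of the 15 mitotic genes (80%), 9 of the 14 replication genes (64.3%) and 37.9% of all promoters. By role, it was found in 75% of the licensing and helicase genes and in 60% of those of chromosomes and the spindle. An E2F match was found in 6 of the 14 replication genes (42.9%), all 6 among the 8 of licensing and the helicase, in 1 of the 15 mitotic genes (6.67%) and in 2.32% of all promoters. CHR matches were in 3 of those 8 (37.5%). Among measured genes, the 14 with a CHR match had a median difference in signal of 0.82, from 0.42 for Mcm7 to 1.22 for Ube2c, and the 18 without had one of 0.51, from 0.02 for Chek1 to 1.50 for Birc5. For CCAAT the medians were 0.76 with a match (20 genes) and 0.51 without (12 genes). All 14 genes with a CHR match also had a CCAAT match, and 11 of the 14 were mitotic genes. CHR, CCAAT and role therefore cannot be told apart in these medians. For the E2F words the medians were 0.75 with a match (7 genes) and 0.73 without (25 genes). These are matches of letters in a window and were not tested as sites.

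Genes of chromosomes, the spindle and cytokinesis included the gene with the largest difference, Birc5. All 6 were above 0, with a median of 0.90. In 4 of the 6 every Foxa2-/- array lay above every control, beside 10.8% of all genes. Birc5 encodes survivin, a subunit of the chromosomal passenger complex that corrects kinetochore attachment. It read 10.34, 10.76 and 9.21 in control replicates 1 to 3 and 11.52, 11.96 and 11.33 in Foxa2-/- replicates 1 to 3. Every Foxa2-/- lung lay above every control, and control replicate 3 was more than a log2 unit below the other controls. The means were 10.10 ± 0.80 and 11.61 ± 0.32 (log2, SD, n = 3 each), 2.83-fold apart (difference 1.50, SE 0.40, 95% interval 0.54 to 2.47, limma adjusted p = 0.195). Without control replicate 3 the difference was 1.05.

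Top2a, the topoisomerase that untangles sister chromatids, read 9.80, 9.84 and 8.14 in controls and 10.15, 10.75 and 10.09 in Foxa2-/- lungs. The groups did not overlap, but the gap between them was small beside the distance of control replicate 3 from the other controls. Its difference of 1.07 (SE 0.48, adjusted p = 0.438) became 0.51 without that array. Nusap1, a microtubule-binding protein of the spindle, had a like pattern, with 9.35, 9.38 and 7.60 against 9.39, 10.21 and 9.72, so that Foxa2-/- replicate 1 stood just above the first 2 controls. Kif20a, the motor that carries the passenger complex to the midzone, showed less spread, from 8.09 to 8.66 in controls and from 8.84 to 9.18 in Foxa2-/- lungs (difference 0.64, SE 0.18, adjusted p = 0.21). Mki67, the proliferation marker that coats mitotic chromosomes, overlapped between the groups. It read 10.55, 10.70 and 9.12 in controls against 10.21, 11.62 and 10.94, with Foxa2-/- replicate 1 below control replicates 1 and 2. Its difference of 0.80 had a 95% interval of -0.43 to 2.04. Kif11, the motor that pushes spindle poles apart, overlapped in the same manner, with 7.75, 7.99 and 5.95 against 7.11, 8.89 and 8.01.

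**Figure D2:**
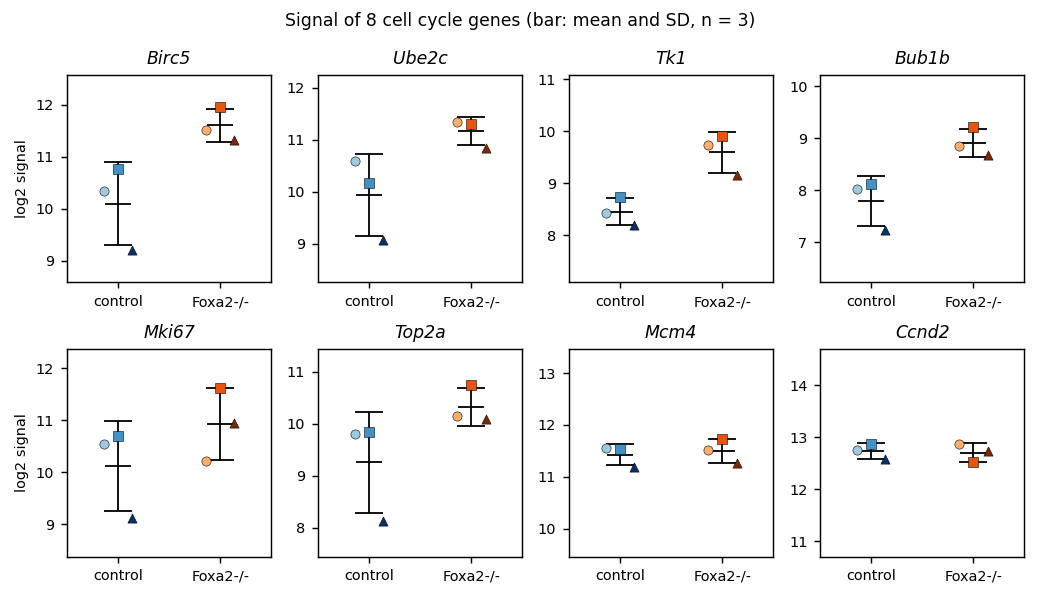
Log2 signal of 8 genes in control and Foxa2-/- lungs, a point for each array, with the mean and SD of 3 arrays; every panel spans 4 log2 units. Birc5, Ube2c, Tk1, Bub1b and Top2a do not overlap between groups, Mki67, Mcm4 and Ccnd2 do, and the triangle in the control column is control replicate 3.

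Checkpoint and anaphase genes had a median difference of 1.03, and all 5 were above 0. Ube2c, the ubiquitin-conjugating enzyme that works with the anaphase-promoting complex, read 10.59, 10.17 and 9.07 in controls and 11.35, 11.30 and 10.85 in Foxa2-/- lungs. All 3 Foxa2-/- values exceeded all controls, with the closest pair being Foxa2-/- replicate 3 and control replicate 1. The difference was 1.22 (SE 0.39, 95% interval 0.29 to 2.15, adjusted p = 0.269), and 0.79 without control replicate 3. Bub1b, which encodes the spindle checkpoint kinase BubR1, read 8.02, 8.12 and 7.24 against 8.85, 9.21 and 8.67. The groups stood well apart, and its difference of 1.12 (SE 0.27) had the second smallest adjusted p of the cell cycle genes, 0.156. Its other bright probe set gave 1.02. Cdc20, the activator of the anaphase-promoting complex, read 9.21, 9.31 and 7.76 against 10.10, 9.95 and 9.33. The groups did not overlap, but Foxa2-/- replicate 3 lay barely above control replicate 2 (difference 1.03, SE 0.44, adjusted p = 0.415).

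Mad2l1 and Bub1 showed no separation. Mad2l1, the checkpoint protein MAD2, ran from 8.46 to 9.15 in controls and from 8.85 to 9.80 in Foxa2-/- lungs (difference 0.54, SE 0.29). Bub1, a kinase of the kinetochore, spread most among the controls, reading 8.47, 8.26 and 6.21 against 7.44, 9.36 and 8.34. Both a control and a Foxa2-/- lung were low, and the difference of 0.74 (SE 0.72) became 0.02 without control replicate 3. Its dim second probe set gave -0.29.

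The mitotic cyclins and kinases were alike in size. All 6 measured genes were above 0, from 0.66 to 1.04. In 5 of the 6 every Foxa2-/- array lay above every control, beside 10.8% of all genes. Aurkb, the kinase of the passenger complex to which survivin belongs, read 8.05, 7.86 and 6.76 in controls and 8.56, 8.91 and 8.32 in Foxa2-/- lungs (difference 1.04, SE 0.35, adjusted p = 0.304), and its second probe set gave 1.26. Ccnb2, cyclin B2, read 8.84, 8.96 and 7.82 against 9.61, 9.93 and 9.08 (difference 1.00, SE 0.36, adjusted p = 0.326). In both genes the 3 Foxa2-/- lungs lay above the 3 controls, and control replicate 3 lay about a log2 unit below the rest. Cdk1, the kinase that cyclin B activates, read 10.14, 9.91 and 8.78 against 10.39, 10.82 and 10.28 (difference 0.89, SE 0.36, adjusted p = 0.399). Plk1, a kinase of spindle assembly and mitotic entry, read 7.90, 8.15 and 7.29 against 8.88, 8.60 and 8.39 (difference 0.84, SE 0.25, adjusted p = 0.234). The gap for Cdk1 was narrow and that for Plk1 wider beside its spread. Aurka, the kinase of spindle poles, differed by 0.73 (SE 0.28, adjusted p = 0.355), also without overlap. Ccna2, cyclin A2, was the exception, since Foxa2-/- replicate 1 (9.52) lay below control replicates 1 and 2 (9.62 and 9.58). On its second probe set Foxa2-/- replicate 1 (9.69) lay above all controls, and Foxa2-/- replicate 3 (9.25) lay below control replicate 2 (9.32).

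Genes that supply nucleotides and copy DNA had a median difference of 0.45, with all 6 above 0. In 2 of the 6 every Foxa2-/- array lay above every control, beside 10.8% of all genes. Tk1, the thymidine kinase that salvages thymidine in S phase, read 8.44, 8.73 and 8.21 in controls and 9.74, 9.91 and 9.17 in Foxa2-/- lungs. Its controls were close together, and every Foxa2-/- lung stood above them. The means were 8.46 ± 0.26 and 9.60 ± 0.39 (log2, SD, n = 3 each), 2.21-fold apart (difference 1.15, SE 0.23, 95% interval 0.59 to 1.70, limma adjusted p = 0.106). This difference rested least on control replicate 3 among the large ones, being 1.02 without it and 0.81 within the shared number. Over the alternatives its adjusted p ran from 0.0617 to 0.334.

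Rrm2, the regulated subunit of ribonucleotide reductase, read 11.82, 12.05 and 10.77 against 12.13, 12.56 and 12.04, an overlap by a hair between control replicate 2 and Foxa2-/- replicate 3. Its 2 dimmer probe sets gave larger differences (1.32 and 1.12) than the brightest (0.70, SE 0.34). Rrm1, the large subunit, differed by 0.43 (SE 0.18, adjusted p = 0.403). Tyms, thymidylate synthase, read 7.22, 7.13 and 6.55 against 7.37, 7.50 and 7.45, without overlap, but its 4 probe sets disagreed, from -0.10 to 0.47. Pcna, the sliding clamp of the replication fork, was bright in every lung and differed by 0.23 (95% interval -0.18 to 0.64). Chek1, the kinase of the replication checkpoint, read 8.42, 8.21 and 7.20 against 6.62, 9.13 and 8.15. The lowest and the highest value both came from Foxa2-/- lungs, and its next 2 probe sets by brightness were also lowest in Foxa2-/- replicate 1 (5.47 and 5.25). Its difference was 0.02 with a 95% interval of -1.54 to 1.58, so a sizeable change either way could not be seen.

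Genes that license origins and unwind DNA had a median difference of 0.61. All 9 were above 0, and in 3 of the 9 every Foxa2-/- array lay above every control, beside 10.8% of all genes. Cdt1, which loads the MCM helicase onto origins, read 9.76, 10.14 and 9.25 in controls and 10.68, 10.91 and 10.25 in Foxa2-/- lungs (difference 0.90, SE 0.27, adjusted p = 0.239), and a second probe set gave 0.71. Cdc45, a subunit of the active helicase, read 7.65, 7.59 and 6.95 against 8.11, 8.20 and 7.80 (difference 0.64, SE 0.22, adjusted p = 0.311). In both the Foxa2-/- lungs were above all controls. Cdc6, the partner of Cdt1 in loading, overlapped because control replicate 2 (8.18) exceeded Foxa2-/- replicates 1 and 3 (8.11 and 7.97).

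The 6 subunits of the MCM helicase differed in size. Mcm5 differed by 0.89 (SE 0.41), Mcm6 by 0.61 (SE 0.20), Mcm2 by 0.44 (SE 0.38), Mcm7 by 0.42 (SE 0.19), Mcm3 by 0.36 (SE 0.31) and Mcm4 by 0.08 (SE 0.17). Adjusted p values ran from 0.295 for Mcm6 to 0.886 for Mcm4, and differences between the subunits were not tested. Mcm6, whose promoter is shown above with its E2F words, read 10.05, 9.77 and 9.52 against 10.53, 10.59 and 10.05. By brightest probe set it was the only subunit without overlap, by less than the printed digits show. A second probe set of Mcm5 read 8.42, 8.59 and 7.58 against 9.33, 9.50 and 8.60, also barely without overlap. Its difference was 0.95 (SE 0.34, adjusted p = 0.398 over probe sets). Mcm4 read 11.55, 11.54 and 11.20 against 11.51, 11.73 and 11.27, and its 95% interval was -0.33 to 0.48. For Mcm2 and Mcm3, Foxa2-/- replicate 3 (8.87 and 9.92) lay below control replicates 1 and 2, and within the shared number Mcm2 differed by 0.01.

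Transcription factors and E-type cyclins, most of which act at the entry to S phase, had a median difference of 0.30. Foxm1, the forkhead factor that drives mitotic genes, read 8.09, 8.04 and 7.73 in controls and 8.54, 8.35 and 8.23 in Foxa2-/- lungs. The Foxa2-/- values all exceeded the controls, by a small step (difference 0.42, SE 0.15, adjusted p = 0.325), and all 4 of its probe sets were above 0. E2f1, an activator of replication genes, overlapped, at 8.71, 8.58 and 7.87 against 9.02, 8.97 and 8.11. Ccne1, cyclin E1, had tight controls at 7.95 ± 0.05 (log2, SD, n = 3), and Foxa2-/- replicate 3 (7.98) lay among them while the others read 8.41 and 8.31 (difference 0.28, SE 0.14). Its second probe set read 7.54, 7.72 and 7.18 against 8.25, 8.28 and 7.82, without overlap and with a larger difference (0.64, SE 0.20, adjusted p = 0.322 over probe sets). Ccne2, cyclin E2, had a difference of -0.12 (SE 0.36), with a low control (8.45 in replicate 3) and a low Foxa2-/- lung (8.32 in replicate 1).

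D-type cyclins, which respond to growth signals, and CDK inhibitors differed in both directions. Their median difference was 0.09, with 3 of 5 above 0, and the groups overlapped in all 5 genes. Ccnd1 read 12.87, 12.70 and 12.54 against 13.07, 12.71 and 12.60, with a difference of 0.09 (95% interval -0.31 to 0.48). Ccnd2 read 12.76, 12.87 and 12.58 against 12.87, 12.52 and 12.74, with a difference of -0.03 (-0.37 to 0.31), and its 7 probe sets ran from -0.04 to 0.29. Both intervals leave out a change of a log2 unit. Ccnd3 differed by 0.22 (-0.42 to 0.86) and was highest in Foxa2-/- replicate 1 (11.90). Cdkn1a, the inhibitor p21 that p53 induces, read 11.81, 11.44 and 11.67 against 12.00, 11.51 and 12.74. A single lung, Foxa2-/- replicate 3, stood out, and the difference was 0.44 (SE 0.31, adjusted p = 0.624). Cdkn1c, the imprinted inhibitor p57, read 10.39, 9.76 and 10.18 against 9.97, 9.33 and 9.82, the most negative difference of the cell cycle genes (-0.41, SE 0.23, adjusted p = 0.55). Its groups overlapped, since control replicate 2 lay below Foxa2-/- replicates 1 and 3.

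**Figure D3:**
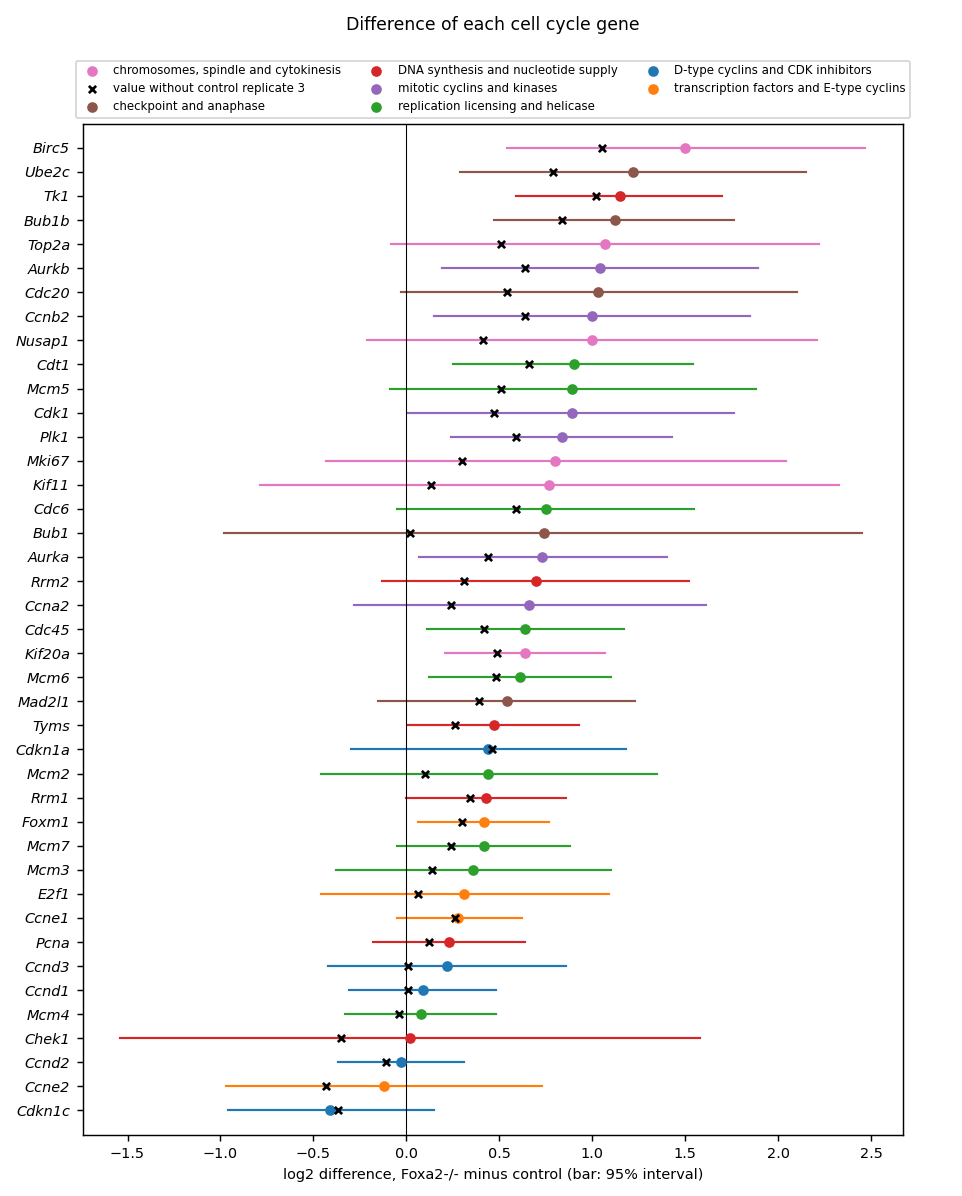
Log2 difference (Foxa2-/- minus control) of each cell cycle gene with its 95% interval from limma, coloured by role, and a cross for the value without control replicate 3. The interval lies above 0 in 16 of the 41 genes, and most crosses lie nearer to 0 than the points.

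All 98 probe sets of the 41 genes were also read singly. Of these, 88 were above 0, beside 51.1% of all probe sets, and limma called none after adjustment over 45037 probe sets, of which it called 45 (0.0999%). In 6 of the 28 genes with several probe sets the signs were mixed: Ccnd1, Ccnd2, Cdt1, Tyms, Chek1 and Bub1. The stray probe set was dim for Cdt1, at 3.17 to 3.55 on every array, and for Bub1, at 3.36 to 4.04.

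Foxa2-/- replicate 1 was low for some cell cycle genes and high for others. Among the Foxa2-/- lungs it was highest in 12 and lowest in 10 of the 41 genes. Against the mean of Foxa2-/- replicates 2 and 3 it was low for Chek1 (-2.02), Bub1 (-1.41), Kif11 (-1.34), Mki67 (-1.07) and Ccne2 (-0.92), and level with them or higher for Cdc20 (0.46), Plk1 (0.38), Ube2c (0.28) and Mcm3 (0.58). These are values of the brightest probe sets. On the next Kif11 probe set by brightness Foxa2-/- replicate 1 was the highest of the 6 arrays (6.89). On the dimmest Kif11 probe set it was the lowest (5.82). The cause of this split was not tested. Control replicate 3 was more uniform, lying below both other controls in every measured gene of mitosis and of DNA synthesis. Its gap to their mean ran from -0.26 for Rrm1 to -2.15 for Bub1 in those genes, and it was 0.05 for Cdkn1a and 0.10 for Cdkn1c.

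Other genes of the pathway, which are not among the 42, were read from lists made for this work. Of 53 other mitosis genes 0 passed, while 47 had a difference above 0. In 22 (41.5%) every Foxa2-/- array lay above every control, beside 10.8% of all genes. At an unadjusted p under 0.05 there were 20 (37.7%), all higher, beside 7.28% of all genes. The median of the 53 was 0.72, and 0.37 without control replicate 3. Spc24, a subunit of the kinetochore's NDC80 complex, read 8.73, 8.76 and 8.09 in controls and 9.89, 9.65 and 9.54 in Foxa2-/- lungs, a wide gap (difference 1.17, SE 0.21, adjusted p = 0.0852). Cdca3, which promotes mitotic entry, differed by 1.21 (SE 0.33, adjusted p = 0.206). Of 42 other replication genes 0 passed, 32 were above 0 and the median was 0.14. In 7 (16.7%) every Foxa2-/- array lay above every control, beside 10.8% of all genes, and in 1 (2.38%) below, beside 8.73%. At an unadjusted p under 0.05 there were 7 (16.7%), all higher, beside 7.28% of all genes. Mcm10 and Gins2, which help to form the active helicase, were both without overlap, at differences of 0.87 for Mcm10 (SE 0.23, adjusted p = 0.188) and 0.73 for Gins2 (SE 0.21, adjusted p = 0.216). The difference between the mitosis and replication lists was not tested.

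Of 36 other regulators 0 passed, 24 were above 0 and the median was 0.10. At an unadjusted p under 0.05 there were 3, all higher (8.33%), near the 7.28% of all genes. Of the 2 with the smallest p, E2f8, an E2F repressor made in S phase, differed by 1.27 (SE 0.36, adjusted p = 0.221), and Cdkn2a, the locus of the inhibitors p16 and p19ARF, by 0.80 (SE 0.29, adjusted p = 0.34). Of 19 p53 targets 0 passed, 10 were above 0 and the median was 0.01. At an unadjusted p under 0.05 there were 2 of 19, both higher, a share near the 12.3% of all genes in either direction and the 7.28% higher. They were Perp, a junction protein (0.60, SE 0.17, adjusted p = 0.229), and Aen, a nuclease (0.31, SE 0.11, adjusted p = 0.341). Cdkn1a is a known target of p53 as well. On Foxa2-/- replicate 3, where Cdkn1a was high, the median of the listed targets stood 0.20 above each gene's 6-array mean, beside 0.17 on Foxa2-/- replicate 1.

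**Figure D4:**
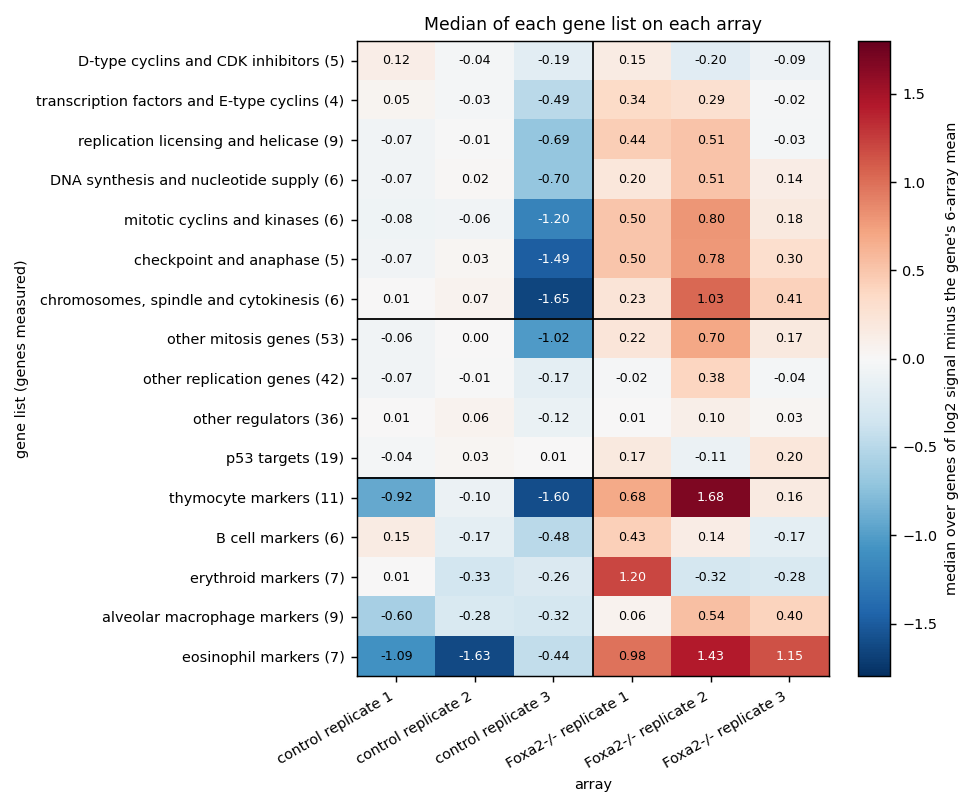
Rows are gene lists with the number of genes measured, columns are arrays, and each cell is the median over genes of log2 signal minus the gene's 6-array mean. The mitotic rows and the thymocyte row are lowest in control replicate 3 (-1.65 to -1.02, and -1.60) and highest in Foxa2-/- replicate 2 (0.70 to 1.03, and 1.68).

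Most markers of thymocytes, which are developing T cells, were lowest and highest on the same arrays as most cell cycle genes. Control replicate 3 lay below both other controls in 8 of the 11 markers. The exceptions were Arpp21, Ptcra and Rag2, dim in controls, where it was the highest control (4.40, 4.45 and 5.30). Of 11 thymocyte markers, 11 were above 0 and 2 rose after adjustment over all genes, beside 0.473% of all genes. Arpp21 rose from 4.31 ± 0.08 to 6.31 ± 0.34 (log2, SD, n = 3 each, limma adjusted p = 0.0198). Dntt, the DNA polymerase of lymphocyte receptor rearrangement, rose from 6.80 ± 1.03 to 10.88 ± 0.64 (adjusted p = 0.0454). Rag1, the recombinase of that step, was singled out after its values were seen and read 7.28, 6.93 and 5.07 in controls and 10.76, 11.24 and 9.99 in Foxa2-/- lungs, with control replicate 3 lowest and Foxa2-/- replicate 2 highest (difference 4.24, adjusted p = 0.0534). The summed linear signal of the 11 markers was 4576, 6951 and 1941 in control replicates 1 to 3 and 11010, 18300 and 8248 in Foxa2-/- replicates 1 to 3 (arbitrary units). That of the 17 mitotic cell cycle genes was 11330, 11770 and 4782 against 15770, 22350 and 14750. Both sums, in which bright genes weigh most, placed the arrays in the same order, from control replicate 3 to Foxa2-/- replicate 2. No marker was below the 25th percentile of signal on every array. The part of thymocyte RNA in the cell cycle values was not tested.

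Other cells that divide or gather in such lungs gave other orders of the arrays, but each shared an extreme with the cell cycle genes. Control replicate 3 was the lowest array in the erythroid and B cell sums. Foxa2-/- replicate 2 was the highest in the macrophage and eosinophil sums. Erythroid markers, a trace of red cell precursors, summed to 7329, 4495 and 1882 against 15290, 2550 and 3699, high in Foxa2-/- replicate 1 alone, and 0 of 7 passed, with 6 above 0 and 0 at an unadjusted p under 0.05. B cell markers ran from 3318 to 5388 in controls and from 3828 to 6721 in Foxa2-/- lungs, and 0 of 6 passed, also with 0 at an unadjusted p under 0.05. Alveolar macrophage markers ran from 24380 to 27380 and from 37070 to 46620, without overlap, and of 9 markers 7 were above 0 and 2 below. Cd68 (1.45, adjusted p = 0.0198) and Itgax (1.94, adjusted p = 0.036) rose. In 6 of the 9 markers every Foxa2-/- array lay above every control, beside 10.8% of all genes. Of the 7 that did not pass, these included Siglecf (1.58), Mrc1 (0.80), Chil3 (0.76) and Car4 (0.20). Marco (0.18), Krt79 (-0.37) and Fabp1 (-1.05) overlapped. Eosinophil markers ran from 1047 to 1732 and from 4489 to 10040, and 3 of 7 rose: Prg2, Epx and Prg3. Siglecf stands in both lists. At an unadjusted p under 0.05 there were 5 of the 9 macrophage and 5 of the 7 eosinophil markers, all higher. Over all genes limma called 0.572%, and 12.3% had an unadjusted p under 0.05, 7.28% being higher. In the macrophage and eosinophil sums control replicate 3 was the highest control, whereas it was the lowest for most cell cycle genes. Marker by marker, it lay below both other controls in 5 of the 9 macrophage markers and 1 of the 7 eosinophil markers. The part of these cells in the cell cycle values was not tested.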

How the data were processed

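Each of 6 samples was whole-lung total RNA read on its own Affymetrix array. The values deposited by the authors are log2 signals per probe set, made with RMA per the submitters' processing notes. For RMA's version and settings the sources used here give nothing, and a log2 scale was inferred from a range of 2.36 to 14.95. RMA equalises the arrays, so a shift of most genes would not be seen, and low differences can be compressed. Of 45101 probe sets, 64 Affymetrix controls were left out and 45037 tested, with no filter on dim signal. By GEO's platform annotation, 34945 of these carried a single gene symbol, 932 carried several and 9160 are unnamed here.

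The genotypes were tested by limma 3.58.1 (R 4.3.3), using lmFit and eBayes without covariates, two-sided, with Benjamini-Hochberg adjustment over 18193 genes and separately over probe sets, a threshold of 0.05 and 95% intervals. The fit was checked on simulated data. There limma called 44.8% of genes raised by 1 log2 unit, 86.6% of those raised by 2 and 93.9% of those raised by 3. It also called 4 unchanged genes. The cell cycle genes and the 13 other lists, with 217 of 225 entries measured, were chosen with earlier results of these data known. Every cell cycle gene could be named. Of the other lists, up to 4 genes that passed in each direction, or else the 2 with the smallest p, were named. Outside this rule, Rag1 was added after its values were seen. Rag2, Ptcra and the alveolar macrophage markers that did not pass were also named outside it. Alternatives covered scaling (median centring, cyclic loess), dim genes, variance moderation, array weights, the shared title number as a random block (statmod 1.5.0) or as a restriction, mean of probe sets, a threshold of 0.1, and each array left out.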

Additional observations from a re-analysis of the deposited data

How the results depend on the processing

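No cell cycle gene passed under any alternative fitted, namely 2 scalings, 2 filters on dim genes, another moderation, array weights, a random block, the mean of probe sets, a threshold of 0.1 and each array left out. Leaving out each array in turn, the count called stayed at 0, the median difference ran from 0.34 (without control replicate 3) to 0.77, the genes above 0 from 36 to 40, and those without overlap from 18 to 26. At an unadjusted p under 0.05 the count, 16 in all arrays, was 9 without control replicate 3, 7 without Foxa2-/- replicate 1 and 8 without Foxa2-/- replicate 2. Over all genes limma called 104, and 48 with cyclic loess, 52 among genes above the median signal, 607 with array weights, 399 with the random block and 320 at 0.1. Without single arrays that count ran from 0 to 249: it was 0 without control replicate 1, control replicate 2 or Foxa2-/- replicate 3 (1654, 1801 and 2111 at an unadjusted p under 0.05), 7 without Foxa2-/- replicate 2, 19 without control replicate 3 and 249 without Foxa2-/- replicate 1. Above the median signal 23 cell cycle genes were tested, with 21 above 0 and 8 without overlap. Of 638 gene values under alternatives 21 changed sign, in 8 genes. With array weights these were Ccnd1 (-0.05), Ccnd3 (-0.04) and Ccne2 (0.02), with the mean of probe sets Ccnd2 (0.07), and within the shared number Ccnd1 (-0.05), Ccnd3 (-0.16), E2f1 (-0.03), Mcm3 (-0.0044) and Mcm4 (-0.04). The others came from leaving out an array, where Ccnd1 ran from -0.05 to 0.18, Ccnd2 from -0.11 to 0.07, Ccnd3 from -0.01 to 0.36, Ccne2 from -0.43 to 0.19, Mcm4 from -0.04 to 0.19 and Chek1 from -0.56 to 0.70. The cause was not tested. The counts of genes above 0 and without overlap were added as results after the values were seen. No paired analysis was possible because the titles tie only 1 control to 2 Foxa2-/- arrays by a shared number, and replicate numbers pair nothing. That number entered as the random block (consensus correlation 0.603, median difference 0.53) and as the restriction to those 3 arrays. None of the cell cycle genes lay below the 25th percentile of signal on every array, and the number of arrays limits the precision.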

Other observations

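Structural cell types of the lung gave no passing gene. Of 7 fibroblast markers, all had a difference below 0 (Foxa2-/- minus control), with a median of -0.14. The smallest p belonged to Dcn, the matrix proteoglycan decorin (-0.67, SE 0.34, adjusted p = 0.497), and Pdgfra, a growth factor receptor (-0.19, SE 0.20). Of 6 endothelial markers, 5 were below 0, with a median of -0.15, led by the vascular receptors Tek (-0.30, SE 0.11, adjusted p = 0.333) and Kdr (-0.36, SE 0.18). Airway epithelial markers had a median of -0.11, and Cyp2f2, the cytochrome of club cells, read 13.13 ± 0.04 in controls and 12.62 ± 0.18 in Foxa2-/- lungs (log2, SD, n = 3 each; adjusted p = 0.165). Krt5, the keratin of basal cells, differed by 0.26 (SE 0.11). Alveolar type II markers were near level, with a median of 0.06, and Napsa and Sftpa1, both of the surfactant system, differed by 0.34 and 0.32 (SE 0.14 each). Limma called 0 genes in these lists. At an unadjusted p under 0.05 there were 1 of 7 airway and 1 of 6 endothelial genes, beside 12.3% of all genes.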
